A study of Mus musculus with 933 samples.

Results

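Cauda embryos were compared between the 4-cell stage and the late 2-cell stage, in 56 of the 933 embryos of the series. The members were 32 embryos of the first 4-cell cohort and 24 embryos collected as 2-cell embryos 28 h after fertilization, picked by the sperm source, stage and hour in their labels. All were FVB mouse embryos from ICSI, the injection of a sperm into the cytoplasm of an egg, here with sperm of the cauda epididymis, the end of the duct where mature sperm are stored. None had received injected RNA, and all were cultured in KSOM medium. The RNA of each whole embryo was sequenced on its own with the Smart-seq2 protocol. The 4-cell embryos came from 4 sessions of 8 embryos each, and the 2-cell embryos from 3 sessions of 8, 9 and 7 embryos. A session here is the date or number of a day or batch in the sample names. The stages share no session and lie in separate tables, so stage, session and table cannot be told apart, and the account is therefore kept to large changes. The labels give no hour of collection for the 4-cell stage beyond a culture note of 28 h written for every sample.

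The fertilized mouse egg starts with RNA made in the oocyte and degrades most of it over the first divisions. Its own genome is first transcribed weakly in the zygote and then strongly in the 2-cell embryo. A set of genes that includes the Zscan4, Usp17l and Tcstv families is known for a short burst of transcription at that stage. Genes for ribosomes, energy metabolism and cell identity are known to follow, and the embryo becomes a ball of polarized, adhering cells at the stages after the 4-cell stage.

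Values are TPM, a transcript's length-corrected share of its library scaled to the same total in each library, as the authors deposited them. They state each transcript as a share of its library, so the depth of a library is unknown, and a share can fall because a transcript was lost or because others increased. Between 8907 and 10966 genes reached 1 TPM in the 4-cell embryos (median 10244), and between 9941 and 12629 in the 2-cell embryos (median 11483). Pearson correlations of log2(TPM + 1) between embryos lay between 0.901 and 0.964 within the 4-cell stage, between 0.763 and 0.950 within the 2-cell stage, and between 0.555 and 0.827 across the stages. The 2-cell embryo 1 of session 114 stood apart, with a median correlation of 0.818 to the other 2-cell embryos, against 0.898 or more for each of those. Its ribosomal protein genes summed to 2986.9 TPM, below the 18462.5 to 47901.2 TPM of the other 23 embryos at 28 h and within the 2948.8 to 6376.6 TPM of the 25 cauda embryos at 18 h. Not every list lay within the range at 18 h. Its 2-cell burst genes summed to 2110.1 TPM, below the 3896.1 to 15120.3 TPM at 18 h. Its genes of the subcortical maternal complex summed to 47081.1 TPM, above the 22380.2 to 39656.6 TPM at 18 h. Counts of list members without it are given beside those that changed. It also held the lowest or highest 2-cell value of many named genes: without it, the lowest was 908 TPM for Obox3, 245 TPM for Zfp352, 343 TPM for Obox6, 37.3 TPM for Rpl3, 15.4 TPM for Wdr74 and 148 TPM for Impdh2. The highest was 5063.2 TPM for Btg4 and 480 TPM for Kpna7. Of 20 listed markers of ovarian follicle cells, 19 had a median of under 1 TPM at both stages, and their sum, at 140 to 425 TPM in 4-cell and 6.14 to 183 TPM in 2-cell embryos, was mostly that of Amhr2. Of 15 transcripts of sperm and spermatids, Prm1, Prm2 and Tnp1 had medians of 0 at both stages, and the sum was 17.8 to 89.0 TPM in 4-cell and 148 to 543 TPM in 2-cell embryos, mostly from Odf2. The sum of 9 markers of blood and blood vessels was 39.4 to 722 TPM in 4-cell and 21.0 to 160 TPM in 2-cell embryos. The part of these markers in the results was not tested.

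The first comparison asks which transcripts separate 4-cell from late 2-cell embryos. A gene was called when its Benjamini-Hochberg adjusted p was under 0.05 and its log2 change, 4-cell minus 2-cell on the log2(TPM + 1) scale, was at least 1 in size, in limma on the 7 session means. Of 13306 tested genes, 3510 (26.4%) were higher and 4724 (35.5%) lower in 4-cell embryos. The change of all tested genes had a median of -0.19. Log2 changes of at least 4 in size were called for 256 higher and 684 lower genes, and of at least 6 in size for 24 higher and 99 lower genes. Each 4-cell embryo lay above each 2-cell embryo for 641 genes (4.82%) and below each for 1104 genes (8.30%).

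The called genes accounted for most of the transcripts at each stage. The 4724 genes called lower held 6.57% of all TPM in the median 4-cell embryo (5.50% to 9.92%), against 51.6% in the median 2-cell embryo (43.4% to 72.3%). The 3510 genes called higher held 62.8% at the 4-cell stage (57.2% to 66.0%), against 17.6% at the 2-cell stage (6.43% to 22.5%). These shares describe the genes chosen on the same embryos. In embryos that took no part in the choice, the genes called lower held a median of 6.66% in caput 4-cell embryos and 53.3% in caput 2-cell embryos at 28 h. The caput embryos came from the same 7 sessions, so stage and session cannot be told apart in them either. The genes called lower held 6.65% and 6.33% in the 4-cell cauda embryos of cohorts 2 and 3, which were made in other sessions. In cauda 2-cell embryos at 24 h, of another session, these genes held a median of 64.8%.

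**Figure D1:**
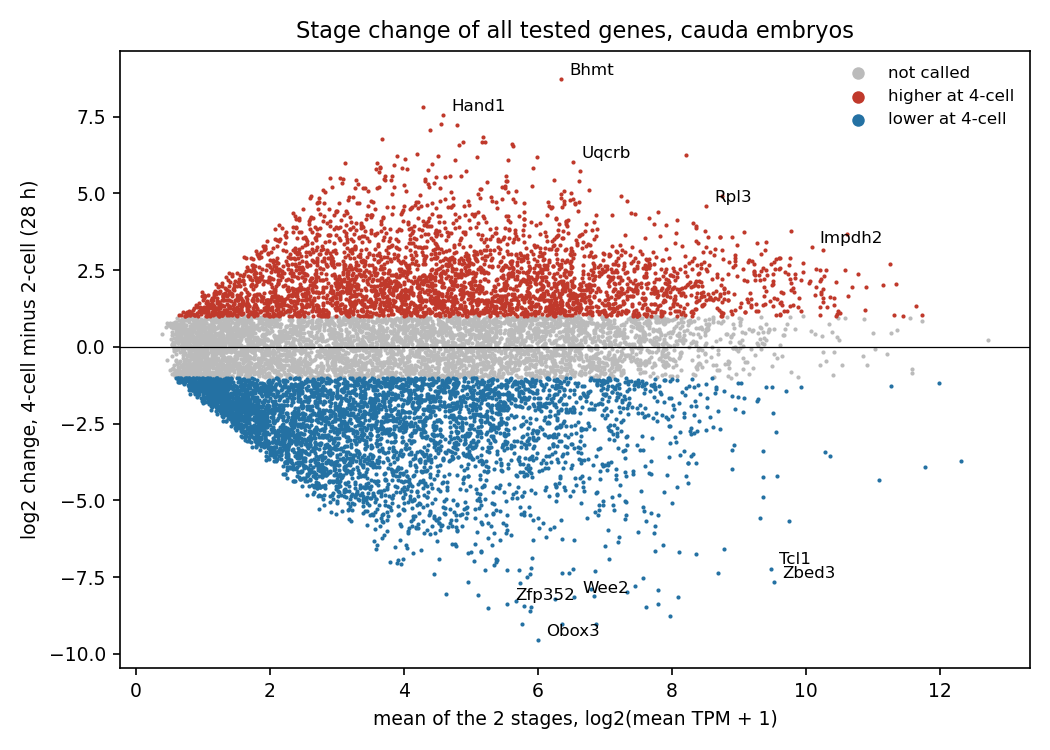
Log2 change between 4-cell and 2-cell cauda embryos (y axis, log2 of TPM + 1) against the mean level over both stages (x axis, log2 of mean TPM + 1), 1 point per tested gene. Red points are the 3510 genes called higher at the 4-cell stage, blue points the 4724 called lower and grey points the others; falls reach further than rises, to -9.54 for Obox3 against 8.73 for Bhmt.

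The transcripts that fell most came from homeobox, zinc finger, Usp17l, Tcstv and Tcl1b genes and from an oocyte kinase gene. Obox3, a homeobox gene of the Obox cluster on chromosome 7 (15625306 to 15639777, mm10), was at 0 to 8.81 TPM in 4-cell embryos (median 0.445), against 81.1 to 2925.3 TPM in 2-cell embryos (median 1472.5). No 4-cell embryo came near a 2-cell embryo, and the change was -9.54 ± 0.24 (SE, adjusted p = 6.60e-11). Zfp352, a zinc finger gene on chromosome 4 (90218820 to 90225687), was at 0 to 12.3 TPM (median 0) in 4-cell embryos, against 115 to 1616.4 TPM (median 646) in 2-cell embryos. Its ranges were also apart, with a change of -8.37 ± 0.23 (SE, adjusted p = 9.13e-11). Wee2, the oocyte form of the kinase that holds the cell cycle kinase Cdk1 inactive, was at 0 to 27.4 TPM (median 4.32) in 4-cell and 750 to 1994.8 TPM (median 1240.9) in 2-cell embryos. It changed by -8.14 ± 0.29 (SE, adjusted p = 3.51e-10), and was already high in cauda embryos at 18 h, with a median of 1356.9 TPM.

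The other 7 of the 10 largest falls were Usp17lb, Tcstv1, Tcstv3, Rfpl4b, Tcl1b5, Tcl1b2 and Tcl1b4, with changes of -8.61 to -7.89. The Tcl1b genes, neighbours of the Akt coactivator gene Tcl1 on chromosome 12, were among the most abundant: Tcl1b2 was at 0 to 64.9 TPM in 4-cell embryos (median 11.8) and at 1960.7 to 5469.3 TPM in 2-cell embryos (median 2829.6). Tcl1 itself was at 0 to 652 TPM (median 42.4) in 4-cell embryos, against 3257.7 to 10456.5 TPM (median 6264.0) in 2-cell embryos, a change of -7.22 ± 0.24 (SE, adjusted p = 2.00e-10). For Usp17lb, Tcstv3 and Rfpl4b the ranges of the stages touched through the 2-cell embryo that stood apart. Without it, the lowest 2-cell embryo had 351, 461 and 175 TPM of these genes in turn, above the highest 4-cell embryo at 30.1, 47.4 and 9.54 TPM. The Obox, Usp17l, Tcstv, Tcl1b and Zscan4 genes have near-identical copies, so the split of reads among the members of a family is uncertain.

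**Figure D2:**
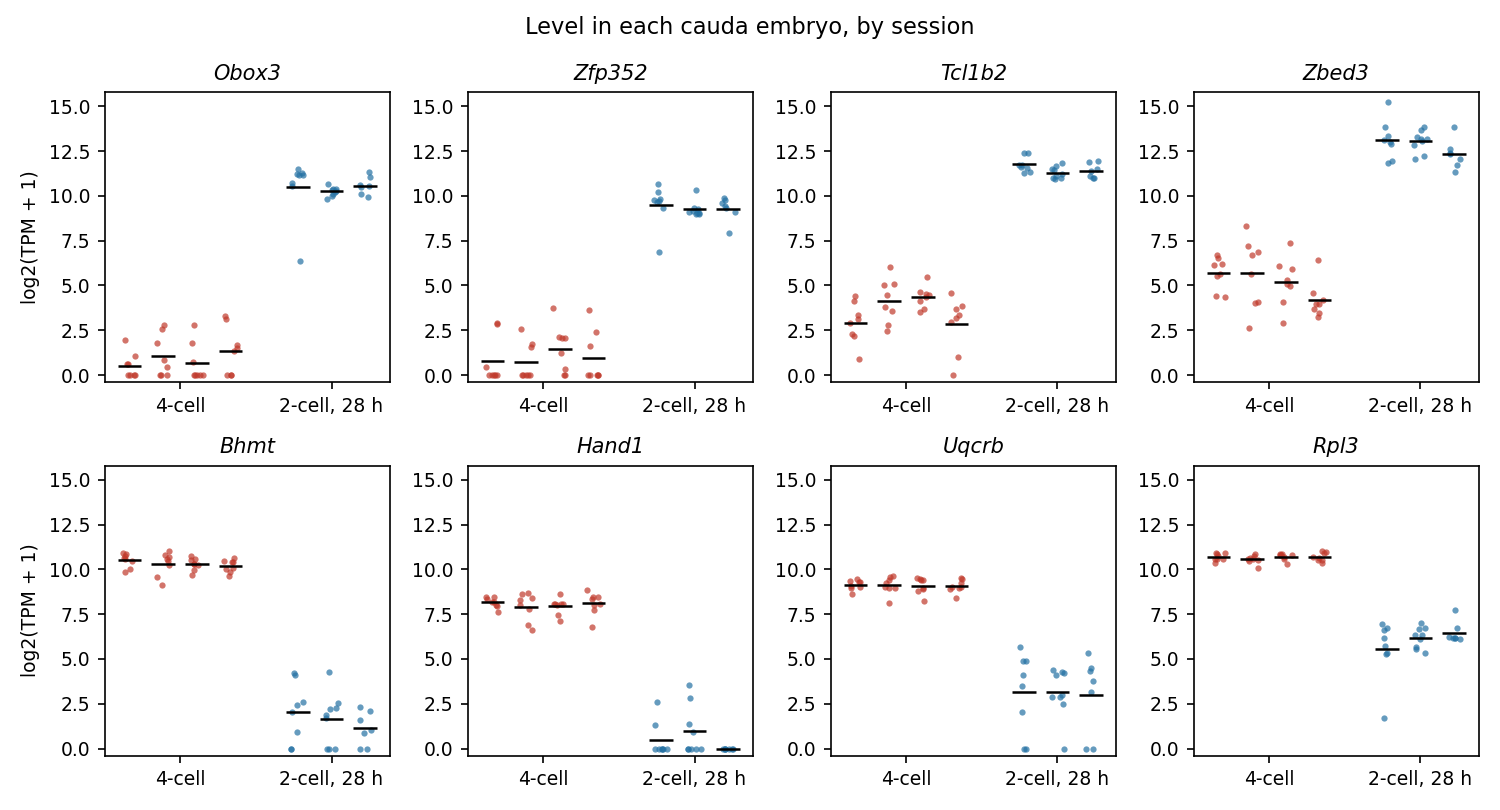
Level in each cauda embryo as log2(TPM + 1) (y axis) for 8 genes, 4-cell embryos in red on the left and 2-cell embryos at 28 h in blue on the right, each column of points a session and each bar its mean. Obox3, Zfp352, Tcl1b2 and Zbed3 are lower in every 4-cell embryo than in any 2-cell embryo, and Bhmt, Hand1, Uqcrb and Rpl3 are higher; the low 2-cell point of Obox3, Zfp352 and Rpl3 is the embryo that stood apart.

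Promoters of genes among the 10 largest falls and the 10 largest rises are shown as examples. The genes were chosen by the direction of their change, so a shared direction follows from the choice. Shared control was not tested. Vnn1 and Hand1, which rose more than Nt5c and Ckmt1, are not among those shown. Each stretch runs from 250 bases before to 50 after the start of the gene, in the gene's own direction, from RefSeq on GRCm38.p6 (the assembly behind mm10), and capitals mark each CG dinucleotide. Those of Obox3 (chr7:15639728-15640027, minus strand), Usp17lb (chr7:104842534-104842833, minus strand) and Zfp352 (chr4:90218570-90218869, plus strand) belong to falling genes. Those of Bhmt (chr13:93637709-93638008, minus strand), Nt5c (chr11:115491765-115492064, minus strand) and Ckmt1 (chr2:121357526-121357825, plus strand) belong to rising genes.
Obox3: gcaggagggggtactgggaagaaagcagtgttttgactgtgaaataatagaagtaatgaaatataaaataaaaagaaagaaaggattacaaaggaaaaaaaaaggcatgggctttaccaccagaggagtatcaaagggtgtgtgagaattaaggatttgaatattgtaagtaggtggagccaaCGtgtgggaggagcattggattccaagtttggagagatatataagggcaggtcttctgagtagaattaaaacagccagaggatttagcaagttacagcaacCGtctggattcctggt
Usp17lb: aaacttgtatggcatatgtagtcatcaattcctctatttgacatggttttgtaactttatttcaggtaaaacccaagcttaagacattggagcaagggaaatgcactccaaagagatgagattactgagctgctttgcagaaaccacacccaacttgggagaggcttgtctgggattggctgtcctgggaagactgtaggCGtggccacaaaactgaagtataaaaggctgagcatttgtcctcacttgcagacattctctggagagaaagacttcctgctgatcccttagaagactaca
Zfp352: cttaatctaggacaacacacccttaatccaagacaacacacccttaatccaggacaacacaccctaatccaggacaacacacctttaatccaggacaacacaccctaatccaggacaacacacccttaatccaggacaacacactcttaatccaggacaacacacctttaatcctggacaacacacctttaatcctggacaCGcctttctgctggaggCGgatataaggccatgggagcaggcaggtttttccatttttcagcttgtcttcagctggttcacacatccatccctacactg
Bhmt: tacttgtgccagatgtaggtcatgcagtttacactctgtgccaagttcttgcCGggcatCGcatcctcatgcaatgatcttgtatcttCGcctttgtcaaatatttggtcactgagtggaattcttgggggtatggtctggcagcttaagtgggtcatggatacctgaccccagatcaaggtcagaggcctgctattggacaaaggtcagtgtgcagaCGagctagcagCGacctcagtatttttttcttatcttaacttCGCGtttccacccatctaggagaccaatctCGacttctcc
Nt5c: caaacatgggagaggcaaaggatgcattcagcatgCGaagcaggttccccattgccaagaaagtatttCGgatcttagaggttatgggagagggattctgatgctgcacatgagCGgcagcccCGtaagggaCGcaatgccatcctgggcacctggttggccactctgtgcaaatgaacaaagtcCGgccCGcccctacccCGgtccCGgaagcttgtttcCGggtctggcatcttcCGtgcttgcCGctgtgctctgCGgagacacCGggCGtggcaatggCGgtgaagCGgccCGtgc
Ckmt1: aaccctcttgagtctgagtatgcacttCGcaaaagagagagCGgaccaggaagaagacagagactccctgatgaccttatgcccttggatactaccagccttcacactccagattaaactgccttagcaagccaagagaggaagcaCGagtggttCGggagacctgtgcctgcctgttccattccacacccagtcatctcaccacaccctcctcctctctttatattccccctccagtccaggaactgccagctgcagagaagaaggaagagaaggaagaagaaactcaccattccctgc
CG occurred 2 times each in the promoters of Obox3 and Zfp352, 1 time in that of Usp17lb, 8 times in that of Bhmt, 18 times in that of Nt5c and 4 times in that of Ckmt1, where the median of 27025 promoters of the same length was 7 and 94.2% held at least 1. The letters TATAAA, searched on both strands, are in the promoters of the falling genes Obox3 and Usp17lb and of the rising gene Ckmt1, not in the other 3 shown, and 14.2% of all these promoters hold them. TAATCC, which was searched after the repeat had been seen, occurs 9 times in the Zfp352 promoter over both strands, 1 time in that of Obox3 and not in the other 4. It is held by 7.16% of all promoters, and 0.0296% hold it at least 3 times. Matched promoters covered 79.8% of the tested genes, 79.5% of those called higher and 79.8% of those called lower, under the 80% set as a minimum, so promoters were not compared between sets of genes.

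The list of 2-cell burst genes fell almost whole. Of 36 tested members, 35 were lower at the 4-cell stage (97.2%, against 35.5% of all tested genes) and none higher. The median change was -5.64, against -0.19 for all tested genes. Their summed level was 973 to 2609.8 TPM in 4-cell embryos (median 1586.9), against 2110.1 to 39768.8 TPM in 2-cell embryos (median 18045.2). The lowest 2-cell sum is that of the embryo that stood apart, and the next was 9177.7 TPM. Zscan4d, a factor known for telomere and genome upkeep in 2-cell embryos, was at 0 to 26.4 TPM (median 4.73) in 4-cell embryos and 38.3 to 522 TPM (median 233) in 2-cell embryos. Dux, the transcription factor known to switch on many burst genes, had a smaller change of -2.12 ± 0.20 (SE, adjusted p = 7.74e-07). It was at 0 to 4.68 TPM (median 0) in 4-cell and at 0 to 73.8 TPM (median 4.26) in 2-cell embryos at 28 h, and its median at 18 h was 110 TPM. The member that was not called was Sp110, at a change of -0.58.

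The Obox family split in direction. Obox1, Obox2, Obox3, Obox5 and Obox7 (listed as Gm4745) were lower at the 4-cell stage, with changes of -9.54 to -4.57, and Obox6 was higher. Obox6 was at 1242.5 to 2622.5 TPM (median 2086.2) in 4-cell embryos, against 9.39 to 1505.9 TPM (median 884) in 2-cell embryos, a change of 1.62 ± 0.18 (SE, adjusted p = 3.91e-06). Its ranges overlapped, and its median was 3.20 TPM at 18 h and 1773.0 TPM in 8-cell embryos. Obox5 ran the other way, at 1.54 to 84.5 TPM (median 31.7) in 4-cell and 1267.5 to 5745.4 TPM (median 2933.7) in 2-cell embryos.

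Transcripts made in the oocyte were lower with few exceptions. Of 39 tested oocyte transcripts 38 were lower (97.4%, against 35.5% of all tested genes) and none higher, with a median change of -4.05. The sum was 762 to 8928.0 TPM in 4-cell embryos (median 2041.6), against 32203.0 to 83657.1 TPM in 2-cell embryos (median 40956.4). The sums of the stages did not overlap. Oosp3, an oocyte-secreted protein gene, was at 0 to 108 TPM (median 26.5) in 4-cell and 1370.1 to 3148.1 TPM (median 2184.6) in 2-cell embryos. Bmp15, a growth factor that the oocyte sends to follicle cells, changed by -6.49 ± 0.20 (SE, adjusted p = 1.56e-10). The gene of the egg coat protein Zp3 changed less, by -1.71 ± 0.31 (SE, adjusted p = 2.30e-04), and its ranges overlapped, at 0.64 to 160 TPM in 4-cell and 41.8 to 152 TPM in 2-cell embryos. Figla, a transcription factor of the early oocyte, was not called, at a change of -0.20.

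The subcortical maternal complex is a set of egg proteins under the cell surface that embryos need for the first divisions. Of its 11 members 10 were lower (90.9%, against 35.5% of all tested genes) and 1 higher, with a median change of -4.27. Zbed3, a member with the highest level of the list, was at 5.22 to 319 TPM (median 35.4) in 4-cell embryos, against 2596.9 to 38969.2 TPM (median 7855.3) in 2-cell embryos. The highest 2-cell value is that of the embryo that stood apart, the next was 14719.3 TPM, and the median of cauda embryos at 18 h was 25166.3 TPM. Nlrp4f and Nlrp4e fell by 6.90 ± 0.20 and 6.42 ± 0.24 on the log2 scale (SE). Khdc3, known as FILIA, was the exception, at 50.3 to 455 TPM (median 174) in 4-cell embryos, against 16.5 to 88.3 TPM (median 46.7) in 2-cell embryos, a change of 1.99 ± 0.21 (SE, adjusted p = 2.25e-06).

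Factors that store, polyadenylate or degrade maternal mRNA fell in part. Of 38 tested, 24 were lower (63.2%, against 35.5% of all tested genes), 1 higher (2.63%, against 26.4%) and 13 not called. The median change was -1.65. Btg4, the adaptor that directs the CCR4-NOT deadenylase to maternal mRNA, was at 1.31 to 176 TPM (median 37.0) in 4-cell embryos and 2089.6 to 8182.3 TPM (median 3698.3) in 2-cell embryos, a change of -6.58 ± 0.23 (SE, adjusted p = 2.49e-10). The deadenylase gene Cnot6l fell by 4.70 ± 0.28 (SE) and the oocyte poly(A)-binding protein gene Pabpc1l by 4.87 ± 0.28 (SE) on the log2 scale. Cpeb2, a regulator of cytoplasmic polyadenylation, was higher by 1.38 ± 0.43 (SE, adjusted p = 0.0113). That call was lost without 2-cell session 114 (1.13, adjusted p = 0.0689), without session 126 (0.97, adjusted p = 0.0714) and with 4-cell cohort 3 (0.69, adjusted p = 0.160).

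**Figure D3:**
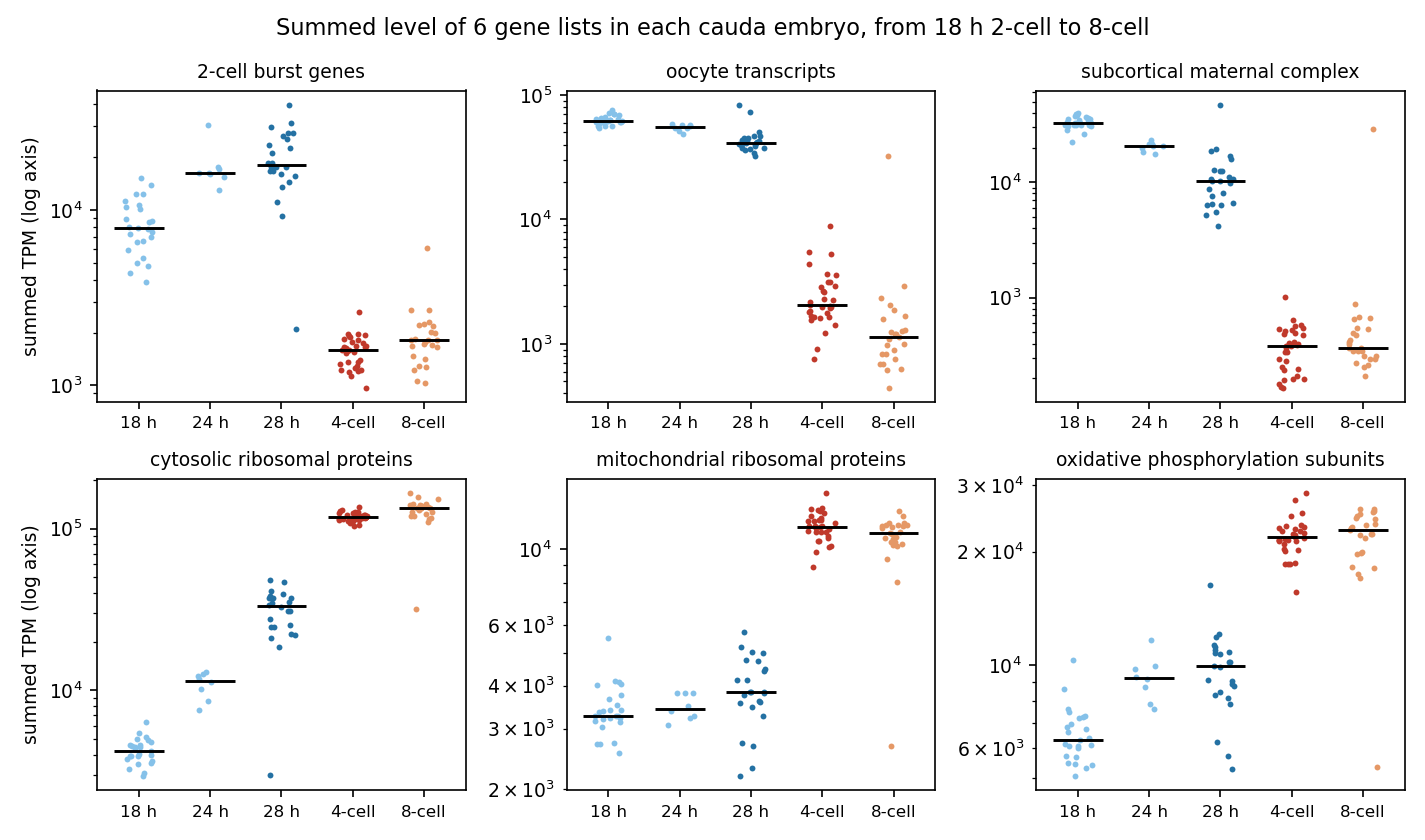
Summed TPM (y axis, log scale) of 6 gene lists in each cauda embryo of the 2-cell stage at 18, 24 and 28 h, the 4-cell stage and the 8-cell stage, with bars at the medians. The burst genes are highest at 28 h, with medians of 7936.0, 16241.3 and 18045.2 TPM at 18, 24 and 28 h; oocyte transcripts are lower at each later stage, and ribosomal protein genes stand at medians of 4233.0, 11487.0, 33121.9, 118196.4 and 133552.9 TPM along the series.

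The series of stages places the change in time, without a test, since the 18 and 28 h embryos share sessions while the others do not. Oocyte transcripts summed to a median of 62302.9 TPM at 18 h, 55362.2 TPM at 24 h and 40956.4 TPM at 28 h, then 2041.6 TPM in 4-cell and 1136.8 TPM in 8-cell embryos. The subcortical complex stood at 32826.0, 20604.6 and 10243.6 TPM at 18, 24 and 28 h, then at 381 and 367 TPM in 4-cell and 8-cell embryos. Mitochondrial ribosomal protein genes, at medians of 3272.4, 3424.6 and 3831.4 TPM at the 3 hours of the 2-cell stage, stood at 11654.6 TPM in 4-cell embryos. An 8-cell embryo stood apart from the other 24 of its stage, with 60.6% of its TPM in the genes called lower at the 4-cell stage.

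The transcripts that rose most encode enzymes, cell surface proteins and a transcription factor. Bhmt, betaine-homocysteine methyltransferase, which makes methionine from betaine, was at 552 to 2102.4 TPM in 4-cell embryos (median 1374.2), against 0 to 18.3 TPM in 2-cell embryos (median 2.46). Each 4-cell embryo was far above each 2-cell embryo, and the change was 8.73 ± 0.21 (SE, adjusted p = 6.60e-11). Vnn1, a pantetheinase on the cell surface, was at 64.5 to 544 TPM (median 296) in 4-cell and 0 to 1.77 TPM (median 0) in 2-cell embryos, and changed by 7.81 ± 0.23 (SE, adjusted p = 1.32e-10). Hand1, a transcription factor of the later trophoblast (chromosome 11, 57828713 to 57832147), was at 96.9 to 459 TPM (median 269) in 4-cell embryos, against 0 to 10.6 TPM (median 0) in 2-cell embryos. It changed by 7.54 ± 0.24 (SE, adjusted p = 1.69e-10), with no overlap, and its median was 178 TPM in 8-cell embryos.

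The other 7 of the 10 largest rises were Nt5c (a nucleotidase), Ckmt1 (mitochondrial creatine kinase), Ccdc53 (a subunit of the WASH complex), Galk1 (galactokinase), Smpdl3a, Lgals8 (a galectin) and Plbd1, with changes of 6.66 to 7.27. Galk1 was at 139 to 490 TPM (median 313) in 4-cell embryos, against 0 to 13.7 TPM (median 1.94) in 2-cell embryos. In 58 genes called higher (0.436% of tested genes), all 24 2-cell embryos were listed at 0. Of these, 25 (0.188% of tested genes) had a mean of at least 5 TPM at the 4-cell stage. Such genes could pass the filter only through the 4-cell embryos. Prl3b1, a placental hormone of the prolactin family, had the highest level of these, at 0 to 228 TPM (median 62.6) in 4-cell embryos. Plaur, the urokinase receptor, followed at 0 to 235 TPM (median 56.4). Plaur also reached 9.47 TPM in a cauda embryo at 18 h and 3.93 TPM in a caput embryo at 28 h. In the other direction, 27 genes called lower (0.203%) were at 0 in all 4-cell embryos, with a mean of at least 5 TPM at the 2-cell stage.

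Genes of the cytosolic ribosome rose together. Of 87 tested ribosomal protein genes, 83 were higher (95.4%, against 26.4% of all tested genes) and 1 lower (1.15%, against 35.5%). The median change was 2.35, and without the embryo that stood apart 79 were higher. Their sum was 103425.4 to 135201.0 TPM in 4-cell embryos (median 118196.4), against 2986.9 to 47901.2 TPM in 2-cell embryos (median 33121.9), so that the sums did not overlap. Rpl3, of the large subunit, was at 1060.7 to 2088.8 TPM (median 1627.7) in 4-cell embryos and 2.30 to 215 TPM (median 71.7) in 2-cell embryos, a change of 4.59 ± 0.19 (SE, adjusted p = 8.06e-10). Rpl14 changed by 4.33 ± 0.14 (SE) and Rpl38 by 3.77 ± 0.20 (SE). Rpl3l, known as the muscle form of Rpl3, was the member that was lower, at 0 to 33.2 TPM (median 2.38) in 4-cell and 0 to 25.4 TPM (median 10.7) in 2-cell embryos. Ribosomal protein genes have many processed copies in the genome, which can take or lend reads.

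Of factors that build ribosomes, more rose than fell. Of 100 tested, 58 were higher (58%, against 26.4% of all tested genes), 2 lower (2%, against 35.5%) and 40 not called. The median change was 1.10, and 50 were higher without the embryo that stood apart. Wdr74, a factor of the pre-60S particle, was at 552 to 1023.8 TPM (median 704) in 4-cell embryos, against 0 to 244 TPM (median 117) in 2-cell embryos, a change of 3.29 ± 0.22 (SE, adjusted p = 2.78e-08). Utp23 and Noc3l were the members that fell, Utp23 by 2.32 ± 0.16 on the log2 scale (SE).

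**Figure D4:**
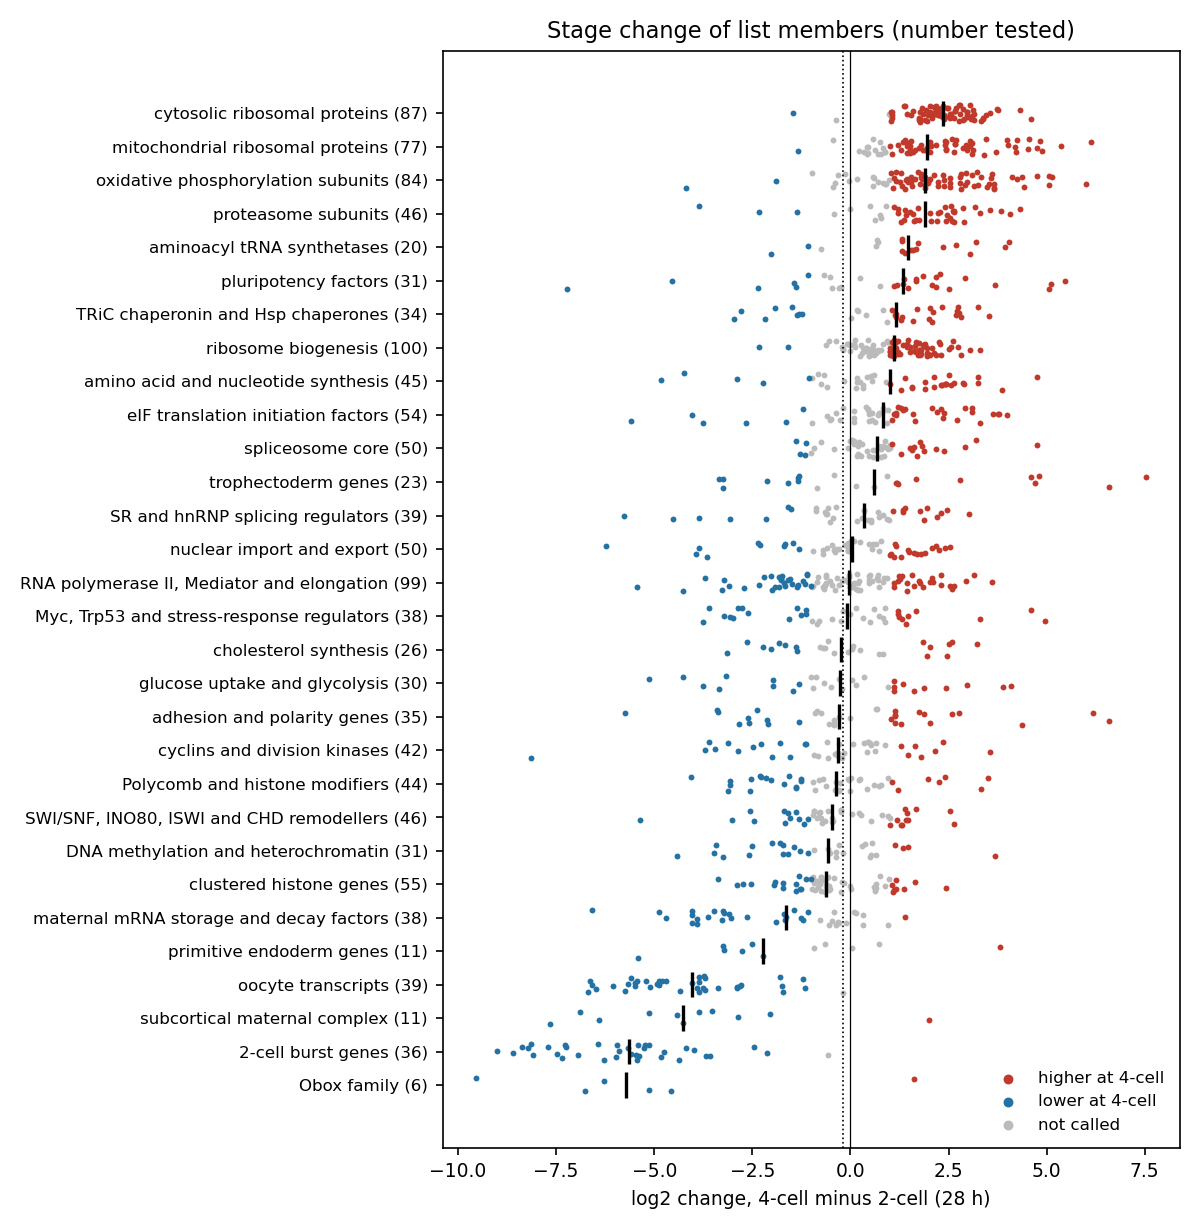
Log2 change, 4-cell minus 2-cell (x axis), of the tested members of 30 gene lists (y axis, number tested in brackets), with red points higher and blue points lower at the 4-cell stage, grey points not called, and a bar at each list's median. The dotted line is the median of all tested genes, -0.19; ribosomal, mitochondrial and proteasome lists lie to the right, and Obox, burst and oocyte lists to the left.

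Mitochondrial ribosomal protein genes, oxidative phosphorylation genes and proteasome genes mostly rose as well. Of 77 mitochondrial ribosomal protein genes 61 were higher and 1 lower (79.2% and 1.3%, against 26.4% and 35.5% of all tested genes). The median change was 1.96, and 60 were higher without the embryo that stood apart. Of 84 nuclear genes for oxidative phosphorylation 67 were higher and 2 lower (79.8% and 2.38%), with a median change of 1.91. Without that embryo 65 were higher and 3 lower. Uqcrb, a subunit of complex III, was at 274 to 792 TPM (median 535) in 4-cell embryos, against 0 to 49.6 TPM (median 11.4) in 2-cell embryos, and changed by 6.01 ± 0.15 (SE, adjusted p = 6.60e-11). The members that fell were Cox6b2 and Cox6a2, known as testis and muscle forms of cytochrome c oxidase subunits, by 4.20 ± 0.31 and 1.89 ± 0.25 on the log2 scale (SE). Of 46 proteasome genes 36 were higher and 3 lower (78.3% and 6.52%), with a median change of 1.90. Psmc4, an ATPase of the cap, was at 315 to 595 TPM (median 437) in 4-cell and 6.93 to 60.9 TPM (median 23.5) in 2-cell embryos. The 3 that fell, Psme4, Psme3 and Psmf1, encode the activators PA200 and PA28 gamma and the inhibitor PI31, and changed by -3.86, -2.32 and -1.35. The call of Psmf1 was lost with 4-cell cohort 2 (-0.96, adjusted p = 0.00120).

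Translation factors and chaperones held both rises and falls. Of 54 eIF genes 24 were higher, 6 lower and 24 not called, with a median change of 0.82. Their 44.4% higher and 11.1% lower stand against 26.4% and 35.5% of all tested genes. Without the embryo that stood apart 7 were lower. Eif3l, of the eIF3 complex, was higher by 4.00 ± 0.20 (SE, adjusted p = 2.81e-09). The 3 largest falls of the list were Eif4e1b, the oocyte form of the cap-binding protein, Eif4enif1, which holds eIF4E back from translation, and Eif4e3, at changes of -5.59, -4.03 and -3.77. Of 20 aminoacyl tRNA synthetase genes 14 were higher (70%) and 2 lower (10%, Iars and Qars), with a median change of 1.46. The Qars change of -1.09 was no longer called without the 4-cell session of embryos 9 to 16 (-0.95) or with cohorts 2 and 3 (-0.70 and -0.81). Of 34 chaperone genes 20 were higher and 8 lower (58.8% and 23.5%), with a median change of 1.17, and 19 were higher without that embryo. All 8 tested subunits of the TRiC chaperonin, which folds actin and tubulin, were among the higher ones. Hspa1a and Hspa1b, the inducible Hsp70 genes, known to be transcribed early in the embryo, were lower, Hspa1a at 0 to 155 TPM (median 7.02) in 4-cell and 0 to 237 TPM (median 75.7) in 2-cell embryos.

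Lists of RNA processing and transcription machinery differed in their counts. In the core of the spliceosome 14 of 50 genes were higher, 4 lower and 32 not called (median change 0.68). The 28% higher is near the 26.4% of all tested genes, and the 8% lower is below their 35.5%. With 4-cell cohorts 2 and 3 in place of cohort 1 the number higher was 23 and 22, with 5 lower in each. Without the embryo that stood apart, 16 were higher and 5 lower. Lsm5, an Sm-like protein, was at 171 to 598 TPM (median 344) in 4-cell embryos, against 0 to 61.2 TPM (median 13.3) in 2-cell embryos. Of 39 SR and hnRNP genes 11 were higher and 7 lower (28.2% and 17.9%). Among them, Srsf3 was up by 3.01 ± 0.18 (SE), and the neuronal splicing repressor Ptbp2 fell by 5.77 ± 0.23 on the log2 scale (SE). Of 50 genes of nuclear transport 17 were higher and 10 lower (34% and 20%), 16 higher without that embryo. Kpna7, the importin alpha of oocytes, fell most of these, to 0 to 16.4 TPM (median 2.42) in 4-cell embryos, against 131 to 521 TPM (median 258) in 2-cell embryos. Of 99 genes of RNA polymerase II, Mediator and elongation 24 were higher and 29 lower, 24.2% and 29.3%, against 26.4% and 35.5% of all tested genes, with a median change of -0.04; 30 were lower without that embryo.

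Pluripotency factors, which keep early cells able to form all lineages, were higher more often than lower. Of 31 tested, 18 were higher (58.1%, against 26.4% of all tested genes), 6 lower (19.4%, against 35.5%) and 7 not called. The median change was 1.35, and 16 were higher without the embryo that stood apart. The list summed to a median of 18555.5 TPM in 4-cell and 16641.4 TPM in 2-cell embryos. Klf2 was at 50.1 to 321 TPM (median 97.9) in 4-cell embryos, against 0 to 11.3 TPM (median 1.27) in 2-cell embryos, a change of 5.46 ± 0.35 (SE, adjusted p = 2.02e-08). Sox15 and Tdgf1, a Nodal co-receptor, were higher by 5.11 ± 0.26 and 5.05 ± 0.25 (SE). Dppa5a, an RNA-binding protein of germ and stem cells, was at 2847.2 to 6374.8 TPM (median 5299.5) in 4-cell and 21.6 to 1147.8 TPM (median 446) in 2-cell embryos. Nanog was at 270 to 993 TPM (median 480) in 4-cell and 67.7 to 539 TPM (median 200) in 2-cell embryos, a change of 1.46 ± 0.18 (SE, adjusted p = 6.39e-06). Pou5f1, which encodes Oct4, was not called, at a change of -0.48 ± 0.16 (SE, adjusted p = 0.0135). Klf17 was lower in each 4-cell embryo, at 330 to 797 TPM (median 485), than in any 2-cell embryo, at 848 to 1871.3 TPM (median 1409.8).

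Genes of the first cell lineages included large changes of single factors. Of 23 trophectoderm genes, which mark the future placenta, 10 were higher (43.5%, against 26.4% of all tested genes) and 8 lower (34.8%, against 35.5%). Tead4, the factor that opens this fate, was at 138 to 371 TPM (median 224) in 4-cell embryos, against 0 to 22.5 TPM (median 8.44) in 2-cell embryos, and changed by 4.81 ± 0.20 (SE, adjusted p = 6.56e-10). Its coactivator Yap1 went the opposite way, at 7.30 to 52.5 TPM (median 28.5) in 4-cell and 121 to 469 TPM (median 298) in 2-cell embryos, a change of -3.26 ± 0.24 (SE, adjusted p = 6.29e-08). Cdx2, the factor that carries the fate forward, was called higher by 1.18 ± 0.30 (SE, adjusted p = 0.00326) at low levels, 0 to 22.9 TPM (median 0.775) in 4-cell embryos against 0 to 4.13 TPM (median 0) in 2-cell embryos. Of 11 tested genes of the primitive endoderm 6 were lower (54.5%) and 1, Gata6, was higher (9.09%). Gata6 was at 3.89 to 86.7 TPM (median 32.7) in 4-cell embryos and 0 to 7.29 TPM (median 1.64) in 2-cell embryos, a change of 3.81 ± 0.26 (SE, adjusted p = 3.27e-08).

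Of 35 tested genes of junctions and polarity, 14 were higher and 10 lower (40% and 28.6%, against 26.4% and 35.5% of all tested genes), with a median change of -0.29. The claudin genes Cldn4 and Cldn7, of tight junctions, were higher by 6.59 ± 0.29 and 6.19 ± 0.22 (SE). Cldn4 was at 13.4 to 603 TPM (median 282) in 4-cell embryos, against 0 to 12.4 TPM (median 0) in 2-cell embryos. The polarity genes Pard3 and Prkci fell by 5.75 ± 0.21 and 3.41 ± 0.23 on the log2 scale (SE), and Pard6g changed by -3.37 ± 0.29 (SE). Pard3, a scaffold of the apical complex, was at 0.10 to 38.7 TPM (median 7.39) in 4-cell and 220 to 665 TPM (median 454) in 2-cell embryos. Beta-actin, Actb, was at 812 to 2334.6 TPM (median 1500.5) in 4-cell embryos, against 103 to 418 TPM (median 223) in 2-cell embryos.

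Of 42 tested cyclins and division kinases, 7 were higher, 13 lower and 22 not called (16.7% higher and 31.0% lower, against 26.4% and 35.5% of all tested genes), with a median change of -0.31. Cdk4, the kinase of G1 phase, was at 125 to 345 TPM (median 255) in 4-cell and 2.33 to 43.4 TPM (median 25.1) in 2-cell embryos, and changed by 3.57 ± 0.21 (SE, adjusted p = 1.22e-08). Beside the fall of Wee2, its somatic relative Wee1 was higher by 1.65 ± 0.28 (SE, adjusted p = 1.49e-04), at 17.7 to 79.5 TPM (median 46.5) in 4-cell embryos against 1.86 to 38.7 TPM (median 15.0) in 2-cell embryos. Fbxo43, known as EMI2, which holds the egg in meiosis, fell by 3.70 ± 0.27 on the log2 scale (SE). The mitotic pair Cdk1 and Ccnb1 was not called, at changes of 0.07 ± 0.15 and 0.45 ± 0.12 (SE, adjusted p = 0.679 and 0.00292). Clustered histone genes, whose mRNA mostly lacks a poly(A) tail, had 8 of 55 members higher and 15 lower (14.5% and 27.3%). The number higher was 4 without the embryo that stood apart and 1 with 4-cell cohort 2, and the number lower was 25 with a pseudocount of 0.1.

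Of 31 genes of DNA methylation and heterochromatin 14 were lower and 4 higher (45.2% and 12.9%, against 35.5% and 26.4% of all tested genes). Tet3, the oocyte enzyme that oxidizes methylcytosine, was at 0.350 to 11.2 TPM (median 2.81) in 4-cell embryos, against 43.3 to 171 TPM (median 82.8) in 2-cell embryos, a change of -4.41 ± 0.22 (SE, adjusted p = 2.77e-09). Tet1 was higher by 1.46 ± 0.23 (SE, adjusted p = 6.12e-05), at 6.82 to 29.8 TPM (median 19.3) in 4-cell and 0 to 15.6 TPM (median 6.49) in 2-cell embryos. Uhrf1, which guides maintenance methylation, fell by 3.42 ± 0.20, and Ehmt2, the G9a methyltransferase, was higher by 3.68 ± 0.23 (SE). Cbx3 was called higher by 1.35, and by 0.86 and no longer called without 2-cell session 114. Of 44 Polycomb and histone modifier genes 16 were lower, a share of 36.4% that is near the 35.5% of all tested genes, and 7 higher (15.9%), or 8 without the embryo that stood apart. Bmi1, of Polycomb complex 1, was at 6.76 to 71.6 TPM (median 41.4) in 4-cell and 375 to 885 TPM (median 615) in 2-cell embryos, while the arginine methyltransferase genes Prmt1 and Prmt5 were higher by 3.33 ± 0.23 and 2.41 ± 0.17 (SE). Of 46 remodeller genes 12 were lower (26.1%; 13 of 45 without that embryo), led by the ATPase gene Smarca2 at -5.37 ± 0.26 (SE), and 11 were higher (23.9%), led by Dpf2 at 2.63 ± 0.20 (SE).

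Of 30 genes of glucose use 10 were higher and 9 lower (33.3% and 30.0%), near the 26.4% and 35.5% of all tested genes, and 8 were higher and 11 lower without the embryo that stood apart. The neighbouring steps of the pentose phosphate pathway moved apart: G6pdx, its entry enzyme on chromosome X, was at 0.410 to 51.1 TPM (median 19.8) in 4-cell embryos, against 262 to 1279.8 TPM (median 659) in 2-cell embryos, while the transketolase gene Tkt was at 83.7 to 354 TPM (median 185) in 4-cell and 3.35 to 24.8 TPM (median 9.88) in 2-cell embryos. Gapdh, Pkm and Ldhb, of late glycolysis, fell by 3.18 ± 0.20, 4.28 ± 0.25 and 3.77 ± 0.27 on the log2 scale (SE), and Pdha1, which feeds pyruvate into the mitochondrial cycle, was higher by 2.98 ± 0.18 (SE). Of 45 genes for amino acid and nucleotide synthesis 23 were higher and 5 lower (51.1% and 11.1%). The number lower was 8 without 2-cell session 126 and 6 without the embryo that stood apart. Impdh2, which limits the making of guanine nucleotides, was at 2022.2 to 4195.6 TPM (median 2913.8) in 4-cell embryos, against 1.90 to 740 TPM in 2-cell embryos (mean 394 ± 188, SD, n = 24), a change of 3.25 ± 0.18 (SE, adjusted p = 6.92e-09). Mthfd2, a mitochondrial enzyme of folate metabolism, fell by 4.83 ± 0.19 (SE). Of 26 genes of cholesterol synthesis 26.9% were higher and 30.8% lower, again near the shares of all tested genes: 7 were higher, with Ebp at 3.23 ± 0.26 (SE), and 8 lower, with the brake Insig1 at -3.15 ± 0.20 (SE).

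Of 38 regulators around Myc, Trp53 and stress, 10 were higher and 13 lower, and their 26.3% and 34.2% are near the 26.4% and 35.5% of all tested genes. Without the embryo that stood apart 9 were higher. Myc was at 1.64 to 261 TPM (median 131) in 4-cell embryos, against 0 to 23.0 TPM (median 3.66) in 2-cell embryos, a change of 4.59 ± 0.30 (SE, adjusted p = 2.70e-08). Max, its binding partner, fell by 3.23 ± 0.18 on the log2 scale (SE), at 10.2 to 46.2 TPM in 4-cell and 86.1 to 397 TPM in 2-cell embryos. Nupr1, a stress-induced nuclear protein, and Bax, a killer protein of the mitochondrial death pathway, were higher by 4.97 ± 0.27 and 3.31 ± 0.18 (SE). Mdm4, an inhibitor of p53, fell by 3.77 ± 0.19 (SE), and Trp53 itself was not called, at 0.88 ± 0.26 (SE, adjusted p = 0.00833). Among the markers of other cells, 4 genes were called. Amhr2, the receptor of anti-Mullerian hormone, was at 136 to 420 TPM (median 208) in 4-cell and 1.57 to 179 TPM (median 131) in 2-cell embryos. It changed by 1.13 ± 0.20 (SE), and by 0.90 and no longer called without the embryo that stood apart. The globin gene Hba-a2 was higher by 2.17 ± 0.51 (SE, adjusted p = 0.00168), while Hbb-bs and Hbb-bt had medians of 0. Odf2, which also forms part of the centrosome, and Ldhc fell by 3.47 ± 0.24 and 1.21 ± 0.23 on the log2 scale (SE), and 3 of the 4 tested sperm transcripts were lower without that embryo.

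Levels in 4-cell cauda embryos of other sessions lay close to those of cohort 1. Cohorts 2 and 3, with 23 and 33 embryos, were collected in sessions of their own and lie in tables of their own. The median of Bhmt was 1374.2, 1280.1 and 1438.9 TPM in cohorts 1, 2 and 3, and that of Hand1 was 269, 265 and 293 TPM. The median of Zbed3 was 35.4, 28.9 and 37.6 TPM. With the same 24 2-cell embryos, cohort 2 gave 3507 higher and 4837 lower genes of 13201, and cohort 3 gave 3581 and 4748 of 13333. The cohort 2 fit left out a session that held 1 embryo. Nanog varied more, with medians of 480, 251 and 382 TPM.

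The last comparison asks whether the stage change differs by the sperm that made the embryo. Caput embryos, made with sperm from the upstream end of the epididymis, were collected in the same sessions, 32 at the 4-cell stage and 25 at 28 h. On their own they gave 3438 higher and 5038 lower genes of 13324. The difference of the stage changes, caput minus cauda, was tested with limma on the 7 within-session differences, and 3 of 14689 genes (0.0204%) passed, all with a larger change in caput embryos. At an unadjusted p under 0.05 there were 1066 of the 14689 genes. With no difference in any gene, a share near 0.05 would pass that threshold.

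Dapk3, a kinase of cell death and actomyosin contraction (chromosome 10, 81182987 to 81193197), had a stage change of 3.19 ± 0.62 in caput and 0.03 ± 0.58 in cauda embryos (SE). It was at 7.37 to 173 TPM (median 63.5) in caput 4-cell embryos and 0 to 42.1 TPM (median 12.6) in cauda 4-cell embryos. In 2-cell embryos it was at 0 to 50.7 TPM (median 6.44) with caput and 0 to 120 TPM (median 13.9) with cauda sperm. The difference of the changes was 3.16 ± 0.36 (SE, adjusted p = 0.0167), and the ranges of all 4 groups overlapped. Eif3b, of the eIF3 complex, had medians of 236 TPM in caput and 71.8 TPM in cauda 4-cell embryos, and of 75.2 TPM in caput and 97.4 TPM in cauda 2-cell embryos, a difference of 1.52 ± 0.19 (SE, adjusted p = 0.0228). Hnrnpab, an RNA-binding protein, had medians of 720 TPM in caput and 261 TPM in cauda 4-cell embryos, and of 362 TPM in caput and 463 TPM in cauda 2-cell embryos, a difference of 1.48 ± 0.14 (SE, adjusted p = 0.00474). No gene passed when session 114 or session 126 was left out, and 1 passed without session 122 or without the 4-cell session of embryos 9 to 16 or of embryos 25 to 32.

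**Figure D5:**
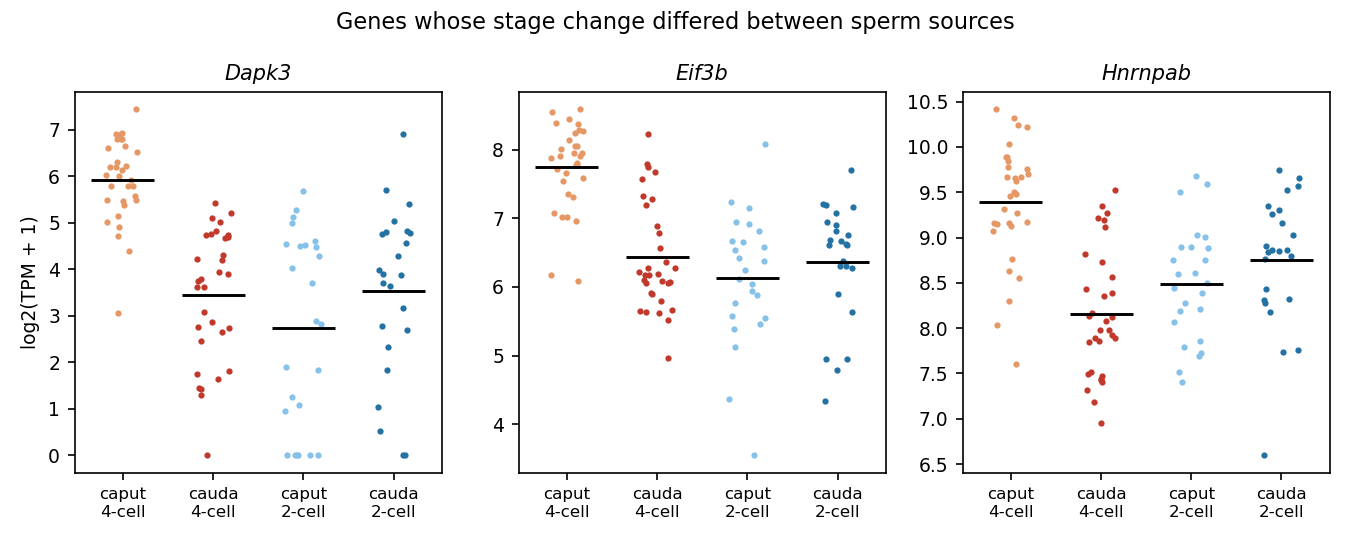
Level in each embryo as log2(TPM + 1) (y axis) of the 3 genes whose stage change differed between sperm sources, with caput before cauda at the 4-cell and then the 2-cell stage, and bars at the means. The mean of 4-cell caput embryos is the highest of the 4 groups in each gene; the stage changes of cauda embryos were 0.03 for Dapk3, 0.10 for Eif3b and -0.58 for Hnrnpab.

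For the genes named in the stage comparison the values of both sperm sources lay side by side. Obox3 changed by -9.23 in caput and -9.54 in cauda embryos, and Bhmt by 8.93 and 8.73. The burst genes summed to a median of 1678.3 TPM in caput 4-cell and 18922.5 TPM in caput 2-cell embryos, against 1586.9 and 18045.2 TPM in cauda embryos of the same stages. Ribosomal protein genes summed to 123713.1 TPM in caput 4-cell and 27639.3 TPM in caput 2-cell embryos. The test found no called difference in these genes.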

How the data were processed

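Single-embryo Smart-seq2 libraries of 56 cauda embryos were analysed, with 57 caput embryos of the same sessions and cauda embryos of other stages and cohorts beside them. The authors deposited TPM per gene for 23845 genes, per the file headers. Bowtie and build mm10 are named in the submitters' processing notes, and versions, the counting step and the annotation release are not given in the sources used here. The sums of TPM lay between 999998.97 and 1000000.98 per library, so read depth is unknown, no counting interval can be given, and precision rests on the spread between embryos and sessions. No gene of the mitochondrial genome is listed, and 27 gene symbols stored as dates were recovered through their transcript identifiers. Smart-seq2 primes on poly(A) tails, so a transcript with a shortened tail may be read less; its part in the values was not tested. A culture note of 28 h stands on every sample, and stages were taken from the stage labels.

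Genes at 1 TPM or more in at least 12 embryos were tested with limma 3.58.1 in R 4.3.3 on the 7 session means of log2(TPM + 1), with an intensity trend, robust variances and Benjamini-Hochberg adjustment, and called at an adjusted p under 0.05 and a change of at least 1. The labels do not say which embryos share parents, so p-values measure the spread between sessions. The pseudocount lowers the change of low genes. The difference between sperm sources was tested in the same way on caput minus cauda means within each session. The fit was checked on simulated data. Embryo numbers shared by the stages did not pair the embryos: correlations of deviations lay between -0.091 and 0.065 over 24 pairs. Gene positions and promoters come from RefSeq tables of GRCm38.p6.

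The members, the 33 gene lists (30 of embryo genes and 3 of other cells) and the tests were chosen with earlier results of these data known. Genes were named by size of change among called genes averaging 5 TPM or more at whichever stage was higher, predicted genes aside: the top 10 rises, the top 10 falls and up to 3 per list and direction, plus the genes called between sperm sources. Sp110, Dux, Zscan4d, Obox1, Obox2, Figla, Bmp15, Zp3, Prl3b1, Plaur, Dppa5a, Nanog, Pou5f1, Klf17, Cdx2, Actb, Wee1, Cdk1, Ccnb1, Gapdh, Trp53, Prm1, Prm2 and Tnp1 were named after their values were seen. Alternatives were another pseudocount, no filter, embryos as replicates, blocks, rescaling, other minimum changes, other cohorts, sessions or libraries left out, and, chosen after seeing the data, leaving out the 2-cell embryo that stood apart.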

Additional observations from a re-analysis of the deposited data

Results flagged for a closer look

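The stage change differed between caput and cauda embryos by the test of the difference itself for 3 genes. The difference, caput change minus cauda change, was 3.16 for Dapk3, 1.52 for Eif3b and 1.48 for Hnrnpab.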

How the results depend on the processing

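With sessions left out in turn, 3434 to 3656 genes were higher and 4452 to 4937 lower at the 4-cell stage. A minimum log2 change of 2 left 1676 higher and 2692 lower genes, and no minimum gave 4709 and 5772. The embryo number as a replicate block gave 3447 higher and 4834 lower genes. The other alternatives for these counts stayed within 1.5 times: 4035 and 5178 with a pseudocount of 0.1, 3275 and 4923 with rescaling by median ratios, 3437 and 4748 without the embryo that stood apart. Genes whose stage change differed between sperm sources numbered 3, and 1 with a pseudocount of 0.1, 1 with no filter, 20 with embryos as replicates and 0 to 3 with a session left out; the cause was not tested. Of 2800 values of 175 named genes under the alternatives, none changed sign and 13, of 8 genes, were no longer called. Most of these genes were named for large called changes, so these counts do not describe the other called genes. The embryo number as a block changed none of the calls of named genes. Unknown depth, 7 sessions and the confounding of stage with session limit all values, and small changes were not weighed.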
